A study of Brassica napus with 33 samples.

Results

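The PAPS reductase genes of *Brassica napus* examined here were 7 of the 101040 genes counted in root RNA-seq libraries. They are the genes that carry the annotation PAPS reductase in the study's list of sulphur-metabolism DEGs (differentially expressed genes) specific to N or S deprivation. BnaA09g20370D and BnaA03g45080D were listed under both deprivations, BnaC04g19270D, BnaA03g59800D and BnaA01g11840D under N, and BnaC01g13420D and BnaC07g37060D under S. By their identifiers, 4 lie in the A genome and 3 in the C genome of this allotetraploid crop. The N and S contrasts chose these genes, and because a DEG specific to one deprivation could not be called in the same direction in another, the Mg, P, K and Ca contrasts took part in the choice as well. All values at 10 days, and those of the 10-day controls against later controls, are therefore given as a description. For these contrasts a gene is said to be called higher or lower where its adjusted p in edgeR's quasi-likelihood test was at most 0.05, only to say where it stood against that threshold.

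Wild-type oilseed rape of the cultivar Trezzor was grown in hydroponics for 24 days on a complete nutrient solution, and each subset of plants was then deprived of a single element. One set of roots was sampled after 10 days of S, N, P, K, Ca or Mg deprivation and compared with control roots of the same age from the complete solution. Roots deprived of Cl, Co or Mn shared their harvest date with the 22-day controls, with which they were compared. The 33 libraries make 11 conditions of 3, and for the 10-day conditions the study describes a replicate as a pool of plants, with several plants grown in each container. A replicate number was not stated to mark a container. Gene identifiers in the counts carry no names outside the study's lists, so the root label was not checked against root markers.

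Sulphate taken up by roots is activated by ATP sulfurylase to adenosine 5'-phosphosulphate (APS). APS is either reduced to sulphite, on the way to sulphide, cysteine and glutathione, or phosphorylated by APS kinase to PAPS, the donor used for sulphated compounds such as glucosinolates. In plants the reducing enzyme of this family, APS reductase, acts on APS in plastids, and it carries a domain named after the PAPS reductase of microbes. In Arabidopsis it is regarded as a main control point of sulphate assimilation, with transcripts that are known to respond to both S and N supply. The annotation PAPS reductase is kept here as the study gives it, and all of these genes share this single annotated role.

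The depth of a library was 10115284 to 22841765 counts on genes in the 10-day set, where the median was 13953898, and 11765941 to 22053289 in the 22-day set, where it was 14500772. All 7 genes passed the filter on low counts at both time points, and their counts ran from 81 (BnaA09g20370D in N replicate 1) to 4997 (BnaA03g45080D in S replicate 1). Levels are given as CPM (counts scaled to library size, with TMM normalization), which do not account for transcript length, so levels are compared between conditions and not between genes. The genes are related copies. Read pairs that mapped to several places, 6.68% to 7.67% of a library, had been left out of the counts, and how pairs divided between near-identical copies was not tested. In whole roots, fewer cells of an expressing type and less RNA per cell cannot be told apart.

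Several libraries stood apart for these genes. Control replicate 2 was the lowest of the 10-day controls for 7 of 7 genes, and among the S-deprived libraries replicate 1 was the highest and replicate 2 the lowest for 7 of 7. The ratio of the highest to the lowest library of a condition had a median over the genes of 1.99 in the 10-day controls and 2.17 under S deprivation, against 1.5 and 1.39 over all genes. It was 1.28 under N deprivation, against 1.34 over all genes. Results that rest on these libraries are given with and without them.

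Under N deprivation, transcripts of these genes were between 17.5% and 50.02% of the control. BnaA09g20370D was measured at 6.89, 6.57 and 5.65 CPM in the N-deprived libraries and at 36.9, 28.5 and 44.3 CPM in the controls. Its log2 fold change was -2.52 ± 0.20 (SE, n = 3 against 3), the largest decrease among the 7. Standard errors at 10 days use a spread estimated over all 21 libraries of that time point. The N-deprived libraries were close to each other and lay far below every control.

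BnaA03g45080D stood at 26.0, 24.2 and 23.9 CPM without N and at 131, 75.2 and 120.1 CPM in the controls, a log2 fold change of -2.13 ± 0.23. BnaC07g37060D stood at 30.5, 31.4 and 31.2 CPM without N and at 149, 108 and 133 CPM in the controls, a log2 fold change of -2.06 ± 0.19. In both genes the N-deprived libraries were close together, and even the lowest control was far above them. BnaA01g11840D (13.2, 16.9 and 16.3 CPM against 82.4, 41.5 and 59.2 CPM) and BnaC01g13420D (12.3, 17.8 and 16.2 CPM against 93.2, 45.6 and 65.2 CPM) gave -1.97 ± 0.29 and -2.13 ± 0.36. BnaA03g59800D, at 14.2, 15.0 and 20.9 CPM against 92.8, 29.98 and 62.9 CPM, gave -1.87 ± 0.37. These 3 genes also had no N-deprived library within the range of the controls.

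BnaC04g19270D differed from the rest. Its N-deprived libraries (29.6, 26.0 and 36.2 CPM) overlapped those of the control (65.9, 35.0 and 83.5 CPM) at control replicate 2, and its log2 fold change of -0.999 ± 0.35 was not called by the quasi-likelihood test. It was called lower by the likelihood ratio test and by DESeq2. The other 6 genes were called lower, where 11.1% of all genes tested were, and the same 6 lay below every control, where 17.0% of all genes did. All 7 fold changes were negative, as were 49.3% of all. These counts follow in part from the choice of the genes and are not evidence about them. BnaC01g13420D and BnaC07g37060D were listed under S alone. Without control replicate 2 all 7 were called lower, with log2 fold changes between -2.67 and -1.28.

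Under S deprivation all 7 genes had means above the control, from 1.54-fold for BnaC07g37060D to 2.47-fold for BnaC01g13420D. BnaC01g13420D was measured at 255, 95.2 and 151 CPM without S against 93.2, 45.6 and 65.2 CPM in the controls, a log2 fold change of 1.31 ± 0.34. BnaA01g11840D, at 189.9, 87.7 and 130.0 CPM without S, gave 1.16 ± 0.28, and BnaA03g45080D, at 293, 163 and 223 CPM, gave 1.07 ± 0.22. In these genes the lowest S-deprived library, replicate 2, still exceeded the highest control.

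BnaA09g20370D stood at 84.3, 46.1 and 64.7 CPM without S (0.84 ± 0.19), with its replicate 2 just above the highest control, 44.3 CPM. BnaC07g37060D stood at 246, 144 and 206 CPM (0.62 ± 0.19), and its replicate 2 fell below control replicate 1. It was called nonetheless. BnaC04g19270D (160, 68.8 and 118 CPM, 0.92 ± 0.35) and BnaA03g59800D (165, 68.9 and 103 CPM, 0.87 ± 0.36) overlapped the controls and were not called, although their mean differences exceeded that of BnaC07g37060D. In all, 5 of the 7 were called higher, against 4.22% of all genes, and 4 lay above every control, against 13.8%. All 7 fold changes were positive, against 49.4%. The choice of the genes again set these counts in part, and they are not evidence about the genes. The call rested on single libraries. With control replicate 2 left out, with S replicate 1 left out, or with both left out, 0 of 7 were called, and the median log2 fold change of 0.92 became 0.69, 0.61 and 0.45, all 7 remaining positive each time.

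**Figure D1:**
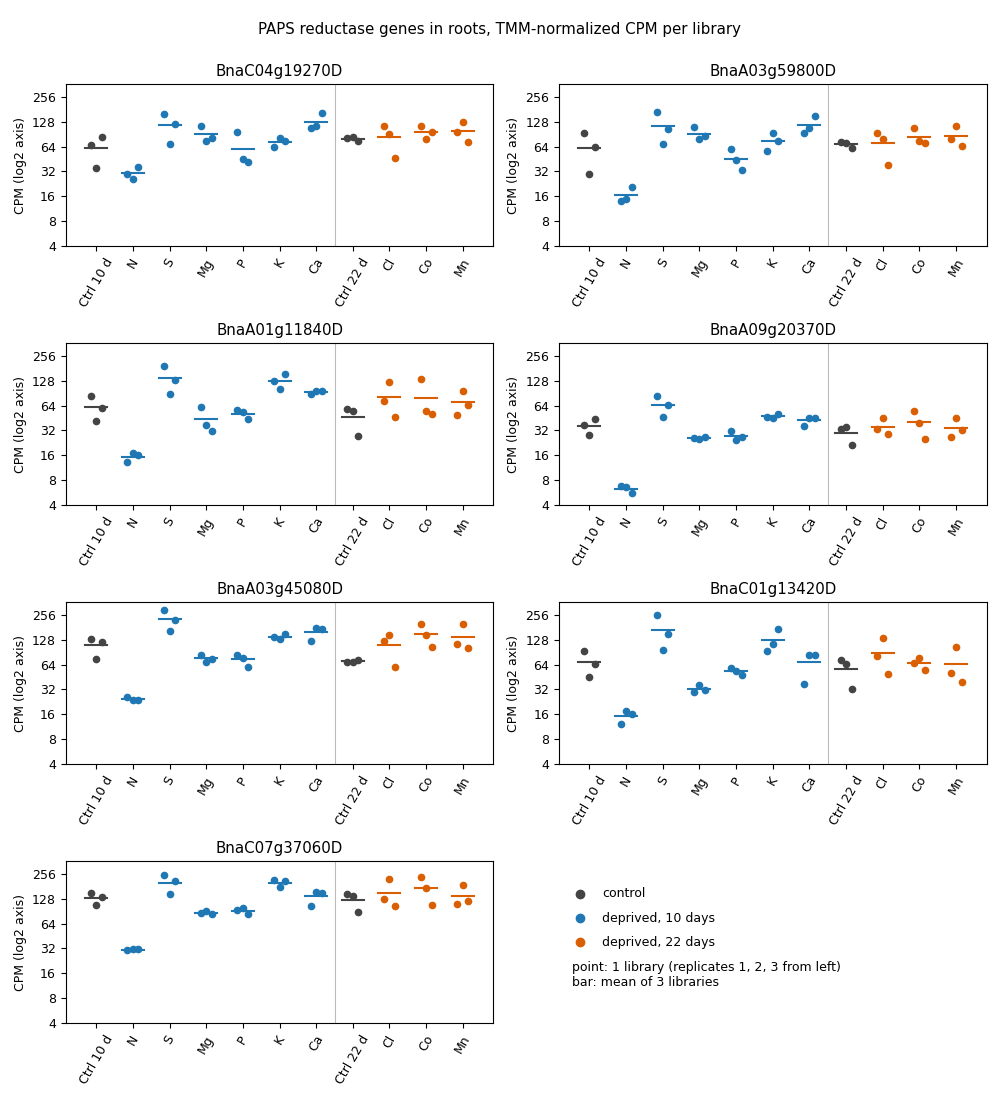
Each point is the TMM-normalized CPM (log2 axis) of 1 library for 1 of the 7 genes, by condition, and bars are means of 3 libraries. In 6 panels the N-deprived libraries lie below those of the 10-day controls, BnaC04g19270D being the exception at 26.0 to 36.2 CPM, and S replicate 1 is the highest S-deprived library in every panel.

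Set against each other, the S-deprived means exceeded the N-deprived means by 1.92 on the log2 scale for BnaC04g19270D, 2.68 for BnaC07g37060D, 2.75 for BnaA03g59800D, 3.13 for BnaA01g11840D, 3.19 for BnaA03g45080D, 3.35 for BnaA09g20370D and 3.43 for BnaC01g13420D. The N and S contrasts share the control libraries and are both part of how the genes were chosen. The S-deprived and N-deprived libraries did not overlap in any of the 7.

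Under Mg deprivation the genes went in different directions. BnaC01g13420D was measured at 29.4, 36.4 and 31.6 CPM without Mg against 93.2, 45.6 and 65.2 CPM in the controls, a log2 fold change of -1.07 ± 0.35. BnaC07g37060D (86.1, 91.1 and 83.1 CPM, -0.59 ± 0.19) and BnaA09g20370D (26.0, 24.9 and 26.7 CPM, -0.50 ± 0.19) were also below every control. These 3 of 7, where 8.30% of all genes lay below every control, had Mg-deprived libraries that differed little from one another. BnaA03g45080D and BnaA01g11840D had log2 fold changes of -0.52 and -0.49 and overlapped the controls. BnaC04g19270D (114, 74.4 and 81.2 CPM) and BnaA03g59800D (111, 79.3 and 84.8 CPM) had means above the control, with 0.54 ± 0.35 and 0.56 ± 0.36, and overlapped it too. None of the 7 was called by edgeR's quasi-likelihood test (the likelihood ratio test called 1 lower and DESeq2 2), against 1.24% of all genes called lower and 2.34% called higher. In the study's own calls at 10 days, a gene listed under N could not be lower under another deprivation, nor one listed under S higher. The lack of calls here was thus set in part by the choice of the genes.

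Under P deprivation all 7 log2 fold changes were negative, from -0.56 for BnaA03g45080D to -0.03 for BnaC04g19270D, with a median of -0.41, where 52.4% of all genes had a negative one. BnaC07g37060D, at 93.8, 98.7 and 82.8 CPM without P against 149, 108 and 133 CPM in the controls, was called lower with -0.51 ± 0.19. It was the 1 gene of 7 called, against 14.3% of all genes called lower, and the 1 that lay below every control, against 19.1%. For the genes listed under N, the study's choice left no room for a call as lower here. Leaving out any P-deprived library, or control replicate 1 or 3, ended that call. Without control replicate 1 the median was -0.08 and 2 of the 7 were positive, and without control replicate 3 BnaC04g19270D was at 0.27. BnaC04g19270D was uneven among the P-deprived libraries, at 94.5 CPM in replicate 1 and 44.8 and 42.2 CPM in the others.

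Under K deprivation all 7 log2 fold changes were positive, with a median of 0.37, where 48.8% of all genes had a positive one. BnaA01g11840D stood at 125, 102 and 154 CPM without K against 82.4, 41.5 and 59.2 CPM, a log2 fold change of 1.06 ± 0.28. BnaC01g13420D stood at 93.3, 112 and 170.0 CPM (0.88 ± 0.34), its replicate 1 level with control replicate 1, and BnaC07g37060D at 211, 176 and 211 CPM (0.62 ± 0.19). BnaA09g20370D (0.37) and BnaA03g45080D (0.35) rounded out the 5 genes whose K-deprived libraries all exceeded every control, as 8.17% of all genes did. BnaC04g19270D (0.25) and BnaA03g59800D (0.28) overlapped the controls. None was called by edgeR's quasi-likelihood test, against 0.916% of all genes called higher, while the likelihood ratio test called 1 higher and DESeq2 2, and the quasi-likelihood test itself called 1 without control replicate 1. For the genes listed under S, the study's choice left no room for a call as higher under K deprivation. Without control replicate 2, 5 of the 7 fold changes were positive and the median was 0.23.

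Under Ca deprivation all 7 fold changes were positive, as were 48.9% of all, and the order of the genes changed. BnaC04g19270D was measured at 106, 114 and 160 CPM without Ca against 65.9, 35.0 and 83.5 CPM in the controls, and was called higher with a log2 fold change of 1.06 ± 0.35. BnaA03g59800D (92.9, 106 and 149 CPM, 0.92 ± 0.36) and BnaA01g11840D (87.8, 95.1 and 94.7 CPM, 0.62 ± 0.28) also lay above every control, by little in replicate 1, and were not called. These 3 of 7 compare with 19.7% of all genes, and the 1 called with 12.6% of all genes called higher. The genes listed under S could not, by the study's choice, be called higher under Ca deprivation. BnaA03g45080D followed with 0.55, BnaA09g20370D with 0.22, BnaC07g37060D with 0.08 and BnaC01g13420D with 0.03. Ca replicate 1 was the lowest of its condition for 7 of 7, most of all for BnaC01g13420D, at 37.7 CPM against 84.0 and 83.6 CPM. Without Ca replicate 1 that gene's log2 fold change was 0.32 and 2 genes were called higher, BnaA03g45080D being the added one. Without control replicate 2 or without Ca replicate 3 none was called. Without control replicate 1 the number called was 3, namely BnaA03g59800D, BnaA01g11840D and BnaA03g45080D. BnaC04g19270D, the gene called with all libraries, lost its call there. Without control replicate 2 the median fell from 0.55 to 0.37, and BnaC01g13420D and BnaC07g37060D were at -0.17 and -0.01. They were also negative without Ca replicate 2 or 3.

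**Figure D2:**
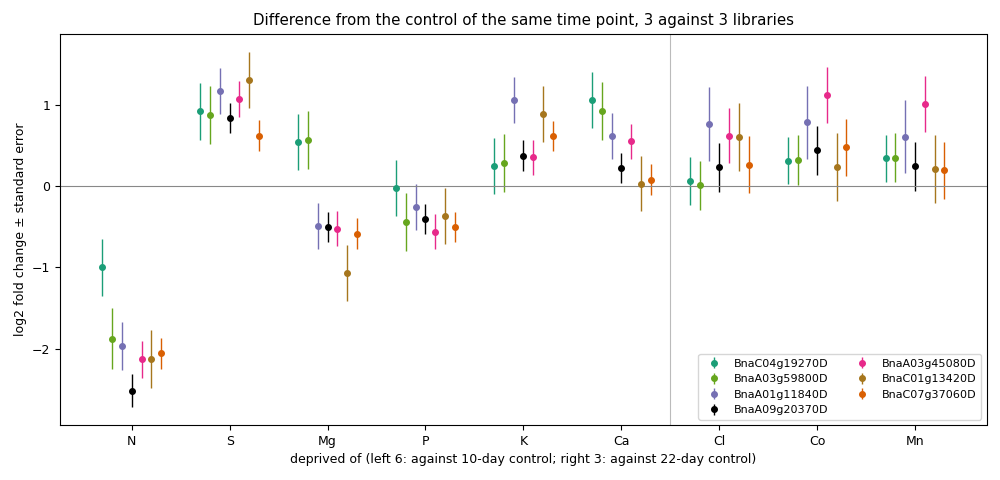
Log2 fold change of each gene against the control of its time point (points, 3 against 3 libraries) with its standard error (bars). The genes lie between -2.52 and -0.999 under N, between 0.62 and 1.31 under S, and on both sides of 0 under Mg, where BnaC04g19270D and BnaA03g59800D are the 2 positive ones.

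BnaC04g19270D and BnaC01g13420D went in opposite directions under Mg deprivation and apart under N, K and Ca deprivation, and their ratio within each library takes out what moves both genes alike. This pair was picked after its values were seen, so the ratio is given without a test, and only its change between conditions is read. It was 0.707 to 1.28 in the 10-day controls, 0.628 to 0.782 under S and 0.435 to 0.730 under K deprivation. Without Mg it was 2.04 to 3.86, without N 1.46 to 2.42 and without Ca 1.35 to 2.81, all above the highest 10-day control. Under P deprivation (0.848 to 1.62) it overlapped the controls. In the 22-day controls it was 1.11 to 2.30, so that the controls themselves spanned 0.707 to 2.30 over both time points.

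BnaC04g19270D and BnaA03g59800D kept closer to each other. Their ratio was 0.938 to 1.03 under Mg and 0.967 to 1.15 under S deprivation, against 0.710 to 1.33 in the 10-day controls. N deprivation stood apart, with 1.73 to 2.08, all above the highest 10-day control, since the decrease of BnaC04g19270D was the smaller one. Under P deprivation (1.02 to 1.59) the ratio reached above the 10-day controls but overlapped them. Under Co deprivation (1.06 to 1.39) it reached both below and above the 1.11 to 1.19 of the 22-day controls.

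**Figure D3:**
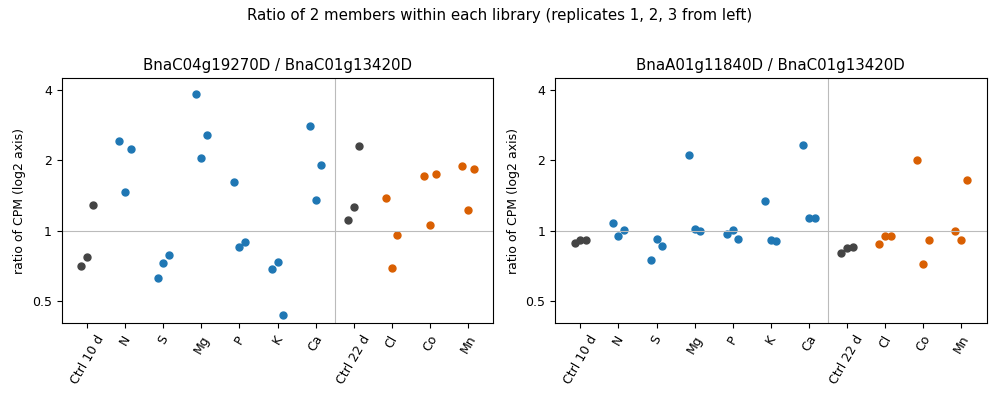
Ratio of CPM of 2 genes within each library (log2 axis), 1 point per library, by condition. On the left BnaC04g19270D over BnaC01g13420D is highest without Mg (2.04 to 3.86) and lowest without K (0.435 to 0.730), and on the right BnaA01g11840D over BnaC01g13420D lies between 0.719 and 1.13 in 28 libraries and between 1.34 and 2.33 in 5.

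The Cl, Co and Mn deprivations played no part in choosing the genes, and these comparisons were tested. All 7 log2 fold changes were positive in each of them, against 50.9% of all genes for Cl, 50.7% for Co and 49.5% for Mn, with medians of 0.26 for Cl, 0.44 for Co and 0.34 for Mn. With 1 library left out, the medians were as low as 0.05 for Cl (without Cl replicate 2), 0.18 for Co (without Co replicate 1) and 0.0969 for Mn (without Mn replicate 2). Without 22-day control replicate 3, 6 of the 7 were positive in each, and 5 were for Cl without Cl replicate 1 or 2. The 3 comparisons share the same control libraries. BnaA03g45080D gave the largest differences for Co and Mn. It stood at 197, 145 and 105 CPM without Co and at 115, 196 and 102 CPM without Mn, against 68.7, 67.8 and 72.3 CPM in the 22-day controls. All 6 deprived libraries exceeded all of the controls, a separation in that direction shown by 10.7% of all genes for Co and 10.0% for Mn. Its log2 fold change was 1.12 ± 0.34 for Co (adjusted p = 0.473, edgeR's quasi-likelihood test with Benjamini-Hochberg adjustment) and 1.01 ± 0.34 for Mn (adjusted p = 0.377), neither past the threshold. Without Cl the same gene was uneven, at 123.3, 144 and 58.9 CPM, with a log2 fold change of 0.62.

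None of the 7 genes was called for Cl, Co or Mn by edgeR's quasi-likelihood test, its likelihood ratio test or DESeq2, and the first of these called 0% of the 54251 genes tested. Over all genes, the likelihood ratio test called 33 for Cl, 77 for Co and 182 for Mn, and DESeq2 34, 52 and 170. At an unadjusted p under 0.05, 0 of the 7 genes passed for Cl, 1 for Co and 1 for Mn, in both cases BnaA03g45080D, against 2225, 5588 and 6326 of all genes. Over all alternatives the adjusted p of a gene ranged from 0.668 to 1 for Cl, from 0.0958 to 0.970 for Co and from 0.189 to 0.996 for Mn. The other genes overlapped the controls. BnaA01g11840D had the largest difference for Cl, 0.76 ± 0.45, and the next largest for Co and Mn, 0.78 ± 0.45 and 0.61 ± 0.45. For Co its difference came with 133 CPM in replicate 1 beside 54.4 and 50.8 CPM, against 58.3, 55.5 and 27.2 CPM in the controls. Cl replicate 3 was the lowest and Mn replicate 2 the highest library of its condition for 7 of 7 genes. Without Mn replicate 2, only 4 of 7 fold changes for Mn remained positive.

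Between the controls of the 2 time points, 22 days against 10 days, none of the genes was called, against 0.372% of all genes called higher and 0.275% called lower. BnaA03g45080D fell outside the range of the earlier controls, at 67.8 to 72.3 CPM against 75.2 to 131 CPM (log2 fold change -0.64 ± 0.28). It was the 1 gene of 7 that lay below every earlier control, against 6.68% of all genes.

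Across all 11 conditions N deprivation had the lowest mean for 7 of 7 genes. S deprivation had the highest mean for 4 and the next highest for the other 3, where Ca deprivation (BnaC04g19270D and BnaA03g59800D) or K deprivation (BnaC07g37060D) came first. BnaC07g37060D under K and S deprivation had means of 199.5 ± 20.6 and 199 ± 51.7 CPM (SD, n = 3), which overlapped. BnaC04g19270D and BnaA03g59800D without Ca, at 127 ± 29.4 and 116 ± 29.3 CPM, likewise overlapped their S-deprived libraries. Only the lowest place was separated from its neighbour in every gene, the N-deprived libraries lying below all those of the next condition. For BnaC04g19270D they still overlapped the 10-day controls.

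Other steps of the pathway were read from the same list of specific DEGs. These genes were also chosen on these libraries, so their counts are not independent evidence of a direction. The study listed the ATP sulfurylase genes under N alone, the sulphate transporter genes under S alone, and most APS kinase genes under Mg. It listed cysteine synthase genes under N or K, glutathione S-transferase genes under N or S, and the glutathione synthase gene under N. Calls in the contrast that listed a gene follow from that choice. In the counts of these pathway genes, rose and fell mean called higher and called lower. Under N deprivation the 3 ATP sulfurylase genes, which make APS, all fell (median log2 fold change -1.59). Of the 11 APS kinase genes, 5 fell (median -0.93), and of the 12 sulphate transporter genes 7 fell (median -2.26). None of them was called higher, though 2 APS kinase genes and 1 transporter gene had positive fold changes. The median over all genes was 0.01, with 9.00% of all called higher and 11.1% lower. The transporter gene with the highest mean CPM, BnaC06g38480D, is annotated SULTR1.2, in Arabidopsis a high-affinity transporter of root uptake. It went from 174 ± 68.0 CPM to 4.37 ± 1.33 CPM (SD, n = 3), a log2 fold change of -5.31.

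Under S deprivation 9 of the 12 sulphate transporter genes rose (median 1.54) and none fell, though 1 had a negative fold change. Of the 11 APS kinase genes 2 rose. Over all genes 4.22% rose and 4.63% fell. With control replicate 2 and S replicate 1 left out together, 5 transporter genes and 0 APS kinase genes rose, and without S replicate 2 alone 2 APS kinase genes rose and 2 fell. None of the 3 ATP sulfurylase genes was called, their median being -0.04 beside 0.92 for the PAPS reductase genes. The former were listed under N alone and some of the latter under S, so the choice of the lists set part of this difference. The ATP sulfurylase gene with the highest mean CPM, BnaC01g22950D, was at 164 ± 84.5 CPM without S and 152 ± 80.4 CPM in the controls. Under P deprivation 8 of the 12 sulphate transporter genes fell and 1 rose (median -1.46), where 14.3% and 15.1% of all genes did. Under Mg deprivation 4 of the 11 APS kinase genes fell and 2 rose (median -1.20), where 1.24% and 2.34% of all genes did. Without Mg replicate 2, 8 APS kinase genes fell and 2 rose. BnaA09g08410D, the APS kinase gene with the highest mean CPM, had log2 fold changes of -0.97 under N, 0.91 under S and -0.96 under Mg deprivation, all called, and 0.52 under K deprivation, not called.

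Further downstream, of the 3 cysteine synthase genes 1 fell under N deprivation and none was called under S. That call was lost at an adjusted p of at most 0.01, with the CPM filter and with only both conditions compared. With all 33 libraries 1 was called higher and none lower, and the likelihood ratio test, upper-quartile normalization, the replicate block and the fit without control replicate 1 each called 1 higher beside the 1 lower. The one with the highest mean CPM, BnaAnng28500D, rose under K deprivation (log2 fold change 0.98) and fell under P deprivation (-0.88). The former call was lost without any 1 of the control libraries and without K replicate 2 or 3. Of 12 glutathione S-transferase genes, 3 rose and none fell under N deprivation, where 9.00% of all genes rose and 11.1% fell, while 2 rose and 3 fell under S deprivation, where 4.22% and 4.63% of all genes did. By the likelihood ratio test and by DESeq2, 3 rose and 3 fell under N deprivation. Without control replicate 3 the former became 3 and 3, and the latter became 0 and 2 without control replicate 2, 0 and 0 without S replicate 1, and 1 and 2 without S replicate 3. The single glutathione synthase gene fell under N (-0.56) and rose under Mg (0.83), P (0.95) and Ca deprivation (0.49). None of the ATP sulfurylase, APS kinase, sulphate transporter, cysteine synthase or glutathione genes was called for Cl, Co or Mn at 22 days by edgeR's quasi-likelihood test. The likelihood ratio test and DESeq2 each called 1 glutathione S-transferase gene lower for Mn.

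Likeness to the PAPS reductase genes was measured over the 11 condition means. For each gene the log2 CPM was centred on its own mean, and the root mean square difference from the mean profile of the 7 genes was taken, over 57494 other genes. The closest were BnaC09g22760D (0.152), BnaC09g42880D (0.261), BnaC08g00970D (0.283), BnaC05g02780D (0.309) and BnaA05g16830D (0.318), none of which has an annotation in the sources used here. All 5 were lowest under N and highest under S deprivation, as was the mean profile by which they were picked. BnaC09g42880D was at low levels, with means of 1.01 CPM without N and 3.76 CPM in the 10-day controls. BnaC09g22760D was at 7.25 ± 1.86 CPM without N, 38.1 ± 9.18 CPM in the 10-day controls and 54.1 ± 14.7 CPM without S (SD, n = 3), and like 5 of the 7 its mean was lower without Mg than in the controls, at 22.2 ± 2.1 CPM.

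Set against the mean of the other 6, BnaA09g20370D ranked first among 57495 genes, BnaA01g11840D, BnaA03g45080D and BnaC07g37060D each ranked 2, BnaA03g59800D 8, BnaC01g13420D 11 and BnaC04g19270D 16. Since the genes were chosen on N or S contrasts of these same libraries, these ranks only describe which of them kept closest to the others. Of the other pathway genes the nearest to the mean profile of all 7 were ATP sulfurylase BnaA03g36860D at rank 15 and BnaCnng62800D at rank 21, and the sulphate transporter BnaC06g38470D at rank 40. SULTR1.2 BnaC06g38480D, whose decrease under N was deeper and which was also called lower under P deprivation, was at rank 52526. Under Ca deprivation it was called lower too, a call lost without control replicate 1.

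**Figure D4:**
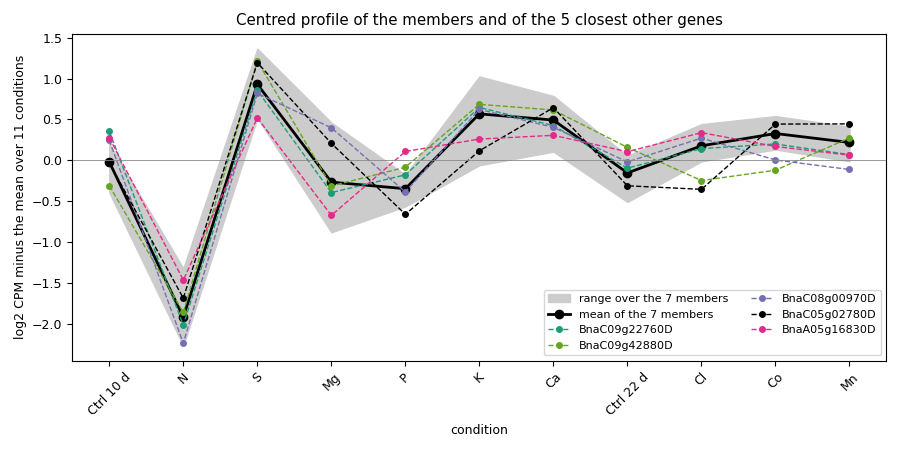
Centred log2 CPM (difference from each gene's mean over the 11 conditions) of the mean of the 7 genes (black line) with their range (grey), and of the 5 closest other genes (dashed). The mean profile is at -1.92 under N and 0.93 under S deprivation. BnaC09g22760D differs from it by a root mean square of 0.152 over the 11 conditions, with 0.35 against -0.02 in the 10-day controls.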

How the data were processed

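Root mRNA of 33 libraries was sequenced as stranded paired-end reads. Per the paper's methods, the authors aligned trimmed reads with STAR against the Genoscope annotation and deposited unnormalized counts of uniquely mapped read pairs per gene. The deposited files give 3 strand settings. The reverse column was used, and the forward one held at most 0.782% of the pairs counted on genes in a library. Unmapped (5.19% to 20.4%), multimapped and no-feature totals (8.46% to 11.1%) stayed out of library sizes and tests. Samples were grouped by their labels.

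The main test was the quasi-likelihood test of edgeR 4.0.16 (R 4.3.3) on the counts (filterByExpr, TMM, 1 coefficient per condition) over the 21 libraries at 10 days, the 12 at 22 days, or all 33 for controls against controls, with Benjamini-Hochberg adjustment over 56667, 54251 and 57501 genes and a threshold of 0.05. The study's likelihood ratio test was an alternative, as was DESeq2 1.42.0. The scripts were tested on simulated data. Standard errors were derived from the fold change and its F statistic (|log2 fold change| over the root of F). P-values and standard errors rest on a spread estimated over all libraries of a fit, not on the 3 against 3 compared alone. For BnaC07g37060D the standard error was 0.19 under both N and S deprivation. With only both conditions compared it was 0.16 for N and 0.25 for S. For likeness, 2 was the prior count of the log2 CPM.

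The members and lists were chosen with earlier results of these data known. All members were named, and of the ATP sulfurylase, APS kinase, sulphate transporter, cysteine synthase and glutathione S-transferase lists, the gene of each with the highest mean CPM. Of these, the glutathione S-transferase BnaA09g29540D was called in no comparison. Other lists of the study are not reported here. Of 21 member identifiers 0 matched the RefSeq gene table, so no sequence is shown.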

Additional observations from a re-analysis of the deposited data

How the results depend on the processing

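The alternatives were the likelihood ratio test, DESeq2, RLE and upper-quartile normalization, no filter or a CPM filter, counts without regard to strand, all 33 libraries or only both conditions compared, stricter thresholds, the replicate block, each library left out in turn, and, chosen after seeing the data, 10-day control replicate 2 and S replicate 1 left out together. Of 1295 fold changes of the genes so computed, 1278 stayed within the spread of the libraries or, where tested, kept their direction and side of the threshold, 4 moved beyond it and 13 at 22 days reversed. The stricter thresholds reused the main fit, so their fold changes could not move and are counted among the 1278. Signs turned in 36 of the 1155 that came from another fit, all in genes not called. For N deprivation the genes called numbered 6 or 7 under all 19 alternatives. For Cl, Co, Mn and the controls of both time points none was called under any alternative.

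For S deprivation the 5 genes called became 0 at an adjusted p of at most 0.01, 3 where a log2 fold change of 1 or more in size was also required, 3 with all 33 libraries, 0 with only both conditions compared and 0 with both libraries left out together. With 1 library left out they ranged from 0 to 6 (0 without control replicate 2 or S replicate 1, and 2 without replicate 3 of either). With both left out, 4 fold changes moved by more than the spread, to 0.63 for BnaA01g11840D, 0.45 for BnaA09g20370D, 0.63 for BnaA03g45080D and 0.65 for BnaC01g13420D. For Mg deprivation, 0 became 1 by the likelihood ratio test and 2 by DESeq2, both lower. For K deprivation, 0 became 1 by the likelihood ratio test and 2 by DESeq2, all higher, and 0 to 1 with 1 library left out (1 without control replicate 1). For P deprivation, 1 became 0 under RLE, upper-quartile normalization, no filter, the CPM filter, counts without regard to strand, all 33 libraries, only both conditions, the replicate block and both stricter thresholds, 2 by DESeq2, and 3 with both libraries left out. With 1 left out it ranged from 0 to 2. For Ca deprivation, 1 became 0 at an adjusted p of at most 0.01, with only both conditions compared and with both libraries left out, and 2 by the likelihood ratio test, by DESeq2 and with the replicate block. With 1 left out it ranged from 0 to 3. Fewer samples in the fit, or a stricter threshold, are the construction of some of these alternatives. Otherwise the cause was not tested.

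Sign changes numbered 13 at 22 days, 18 at 10 days and 5 between the controls, with none under N, S or Mg deprivation. At 10 days they were 6 for P (BnaC04g19270D up to 0.27, BnaA01g11840D 0.00498), 4 for K (BnaA03g59800D and BnaC04g19270D, down to -0.05 and -0.03) and 8 for Ca (BnaC01g13420D and BnaC07g37060D, down to -0.19 and -0.04). At 22 days, with the replicate block, the log2 fold change for Cl became -0.00130 for BnaC04g19270D and -0.0670 for BnaA03g59800D, and with only both conditions compared it became -0.00724 for BnaA03g59800D. With 1 library left out it ranged from -0.22 to 0.36 for BnaC04g19270D, -0.26 to 0.32 for BnaA03g59800D and -0.0973 to 0.48 for BnaC07g37060D under Cl deprivation, and from -0.0454 to 0.45 for BnaC01g13420D under Co deprivation. Under Mn deprivation it ranged from -0.00596 to 0.41 for BnaA09g20370D, -0.32 to 0.47 for BnaC01g13420D and -0.0881 to 0.34 for BnaC07g37060D. The cause was not tested.

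The replicate numbers were not taken to pair libraries. Deviations from the condition means of same-numbered libraries correlated at 0.00412 on average at 10 days (13 of 63 pairs over 0.1) and 0.114 at 22 days (7 of 18 pairs). As a hint from the data, 8 of 21 and 11 of 12 libraries were closest to their own number. Apart from P and Ca deprivation above, the replicate block moved no count of PAPS reductase genes called by over 1.5 times, giving 7 for N and 4 for S deprivation. The lowest count of a gene was 81, and each condition had 3 libraries.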

Other observations

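BnaA01g11840D and BnaC01g13420D kept a near-constant ratio of CPM in most libraries. In 28 of the 33 it lay between 0.719 and 1.13, with a median of 0.918. In the other 5 it was 1.34 (K replicate 1), 1.66 (Mn replicate 3), 2.001 (Co replicate 1), 2.101 (Mg replicate 1) and 2.33 (Ca replicate 1), while the remaining libraries of each of these conditions lay within the lower range. The 5 libraries were picked out after their values were seen and belong to 5 different conditions. In Ca replicate 1 BnaC01g13420D stood at 37.7 CPM beside 84.0 and 83.6 CPM in its condition, and BnaA01g11840D at 87.8 beside 95.1 and 94.7 CPM. In Mg replicate 1 and Co replicate 1 it was BnaA01g11840D that stood apart, at 61.8 CPM beside 36.9 and 31.6 CPM and at 133 CPM beside 54.4 and 50.8 CPM, whereas BnaC01g13420D was at 29.4 CPM beside 36.4 and 31.6 CPM and at 66.5 CPM beside 75.7 and 55.7 CPM.

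BnaA03g45080D over BnaC07g37060D is a further ratio chosen after its values were seen. It was 1.08 to 1.19 under S and 1.13 to 1.18 under Ca deprivation, above the 0.697 to 0.900 of the 10-day controls, and 0.651 to 0.744 under K deprivation, which overlapped them. In the 22-day controls it was 0.473 to 0.811.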
